A study of Mus musculus with 9 samples.

Results

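G0 myoblasts were set against G0 fibroblasts on 2 two-colour arrays, out of 9 arrays in the series, chosen as the pair whose titles name suspension-arrested fibroblasts and suspension-arrested myoblasts. G0 MB were C2C12 myoblasts, a mouse muscle line, held in suspension for 48 h in methyl cellulose, where cells cannot attach and leave the cell cycle. G0 FB were fibroblasts held for 48 h in methyl cellulose as well, but, by the study's methods, in medium with less serum than that of the myoblasts. They are NIH 3T3 cells in the labels and C3H10T1/2 cells, a multipotent mesenchymal line, in the paper. On array 1 the labels give G0 MB as Cy3 and G0 FB as Cy5, and on array 2 G0 FB as Cy3 and G0 MB as Cy5. The labels are not free of conflict: the G0 MB of array 2 have C2C12 as their cell line but a source name that starts with NIH 3T3, and a treatment entry for both arrays describes cells replated after arrest, which the titles do not. Each line is 1 established line, so the comparison holds line, tissue of origin and culture, with its serum, together, which cannot be told apart.

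Quiescent cells have left the cell cycle but can return to it, as the satellite cells of muscle do after injury. Myoblasts arrested in suspension keep the potential to differentiate, whereas myotubes (MT) have left the cycle for good and express the contractile proteins. Fibroblasts make the interstitial matrix of collagens and proteoglycans and, when attached, an actin cytoskeleton under tension, much of whose gene expression is driven by serum response factor (SRF) at a short element called the CArG box. H19 is an imprinted, non-coding RNA of chromosome 7 that is abundant in embryonic mesoderm and in muscle cells, and its neighbour Igf2 encodes a growth factor.

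The direction of every ratio depends on which label is read. By the labelled dyes, the signs are those given throughout, as log2 of G0 MB over G0 FB. In the deposited value table, whose columns follow the titles with fibroblasts as the reference and myoblasts as the test, every sign of both arrays is the opposite, so that higher reads lower and lower reads higher. The study's own text gives directions in title order, so the signs by the labelled dyes are opposite to the study's. Sizes, standard errors and p-values are the same either way. Of the muscle markers on the array, Mylpf and Tpm2 had signal, and both were dimmer in the channel labelled G0 MB, Tpm2 on both arrays and Mylpf on array 2 alone. Mylpf, the fast skeletal muscle myosin light chain, was at 663 in the channel labelled G0 MB and 236825 in that labelled G0 FB on array 2, and was listed at 0 in both channels of array 1. Clones with a ratio on array 2 alone leaned to a dim Cy5, the dye of G0 MB there: past log2 4 it was 114 against 15 with a dim Cy3. The RNA labelled G0 MB on the 5 arrays that set it against growing myoblasts (MB) or MT (C2C12 in all their labels) held the same Mylpf clone above the detection limit. It lay at percentile 79.8 to 89.2 beside MB, where labels and titles give the same direction. Beside MT it lay at percentile 98.8 to 99.5, but the labels of these 2 arrays also run opposite to the titles. By these labels the clone was at log2 4.20 and 3.02 in G0 MB over MT. The channels labelled MT held it at percentile 82.9 to 84.4, although myotubes express the contractile proteins. Whether the labels of these arrays are right was not tested. Beside G0 FB, the clone had its signal on array 2, at percentile 4.82 in the channel labelled G0 MB and at percentile 98 in that labelled G0 FB. Only 3 of 27 muscle markers had a clone on the array, none of them Myod1, Myf5, Myog or Des. G0 MB and G0 FB are therefore used below as names of labelled RNA, and which line each channel held was not settled by a muscle regulator.

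Signal was measured for 7223 clones on array 1 and 7887 on array 2, of 15247 clones spotted in duplicate, that is with at least 1 of the 2 dye intensities above the detection limit of the array. Duplicate spots of a clone correlated in their log2 ratios with r = 0.917 on array 1 and r = 0.85 on array 2. Both channels lay above the limit in 86.7% and 72.4% of these spots. Duplicate spots were averaged, and 6140 clones with values on both arrays and enough others in the fit were tested.

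The 2 arrays agreed in part. Past 1.6-fold in the same direction on both arrays were 498 clones (8.11% of those tested), 296 higher in G0 MB (4.82%) and 202 lower (3.29%) by the labelled dyes, a split that title order turns round. Another 179 clones passed 1.6-fold in opposite directions. Across clones, which are not independent replicates, the ratios of the arrays had r = 0.24. In the dimmest 1535 clones r was 0.098 with 116 clones higher, 68 lower and 122 opposed past 1.6-fold, and in the brightest 1535 it was 0.406 with 43 higher, 29 lower and 11 opposed. Of 4514 clones with both channels above the limit on all 4 spots, 127 were higher and 136 lower past 1.6-fold on both arrays, and 51 were opposed.

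**Figure D1:**
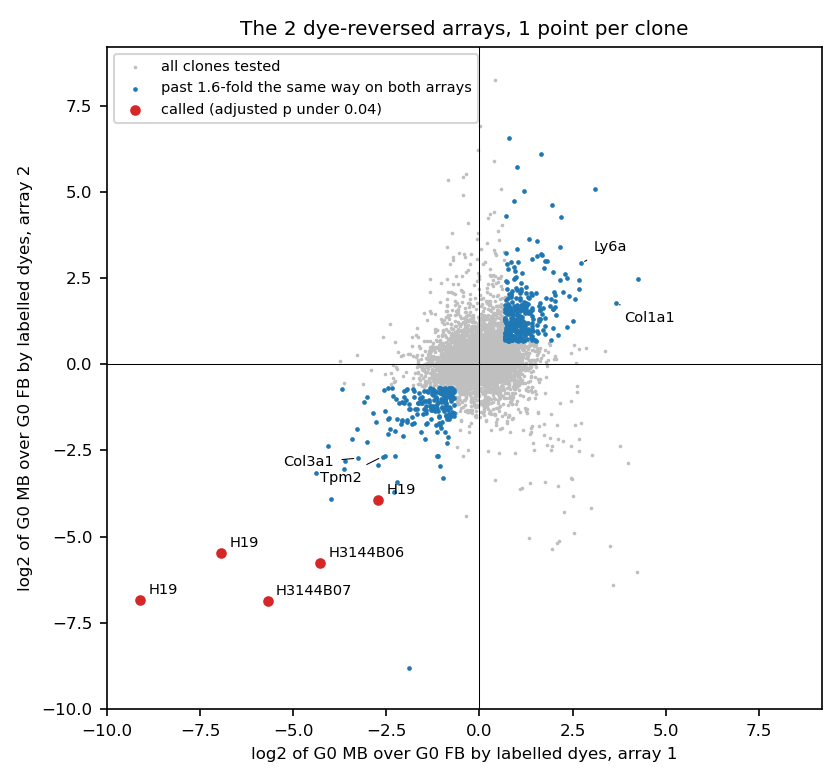
Log2 ratio of G0 MB over G0 FB by labelled dyes on array 1 (x axis) against array 2 (y axis), 1 point per clone tested, with clones past 1.6-fold the same way on both arrays in blue and the 5 called clones in red; title order turns both axes. The 5 called clones lie at the lower left, near uncalled clones such as Col3a1 and Tpm2, while points far to the lower right and upper left went in opposite directions.

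H19 was the named gene whose clones were called. Clones were called at an adjusted p under 0.04 (limma, Benjamini-Hochberg) and a mean past 1.6-fold. Of the 6140 clones tested, 5 were called (0.0814%), by the labelled dyes 0 of them higher and 5 lower in G0 MB. By limma's unadjusted p under 0.05 there were 168 higher (2.74%) and 144 lower (2.35%). Among the 5 calls were all 3 H19 clones that could be tested, and the other 2 carry no gene symbol. Of these 5, only H19 clone H3129B08 had both channels above the limit on both arrays. The p of each other call rests wholly or in part on G0 MB values not above background. With 1 array of the fit left out in turn, the number of calls ranged between 0 without replicate 1 of G0 MB over MB and 21 without array 1, with 2 called without array 2 and 3 without replicate 2 of G0 MB over MB. A fit of the 2 arrays alone called 0 clones, with 453 higher and 245 lower at an unadjusted p under 0.05. All of these p-values measure only the spread between the arrays, which may be technical, since the labels do not say which arrays came from separate cultures; the study's methods give a biological replicate and a dye reversal for each pair without naming the arrays.

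H19 clone H3123G09 (chromosome 7) gave an intensity of 198 for G0 MB and 47104 for G0 FB on array 1. On array 2 it gave 1622.5 for G0 MB and 185494 for G0 FB. Both arrays showed it bright in the channel labelled G0 FB and under the detection limit in that labelled G0 MB, so the fold is a bound. As the mean of the 2 arrays on the log2 scale, it was at least 44.1-fold lower in G0 MB. The clone passed the filter through the G0 FB channel alone, so the exact ratio, SE and p rest on G0 MB values that are not above background. Its log2 ratios were −9.12 and −6.84, with a mean of −7.98 ± 0.59 (SE, adjusted p = 0.0028 by limma). H19 clone H3133G06 had 679 in G0 MB against 76774 in G0 FB on array 1 and 2274 in G0 MB against 100478 in G0 FB on array 2. The same holds for this clone, which was under the limit in G0 MB on both arrays and, by the same mean, at least 41.4-fold lower there (log2 −6.94 and −5.48, mean −6.21 ± 0.49, adjusted p = 0.0028 by limma). The brightest H19 clone, H3129B08, was above the limit in both channels. It read 29328 for G0 MB and 194746 for G0 FB on array 1, and 63852 for G0 MB and 983532 for G0 FB on array 2. By this brightest clone, the 1 with both channels measured, H19 was 10.1-fold lower in G0 MB (log2 −2.73 and −3.95, mean −3.34 ± 0.41, adjusted p = 0.0393 by limma), and its call is lost when any 1 of the 7 arrays of the fit is left out (adjusted p up to 0.842). The fourth H19 clone, H3005A04, was listed at 0 in both channels of array 1 and could not be tested. On array 2 it read 987.5 for G0 MB and 213640 for G0 FB, a ratio of at least 70.7-fold with G0 MB under its limit.

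**Figure D2:**
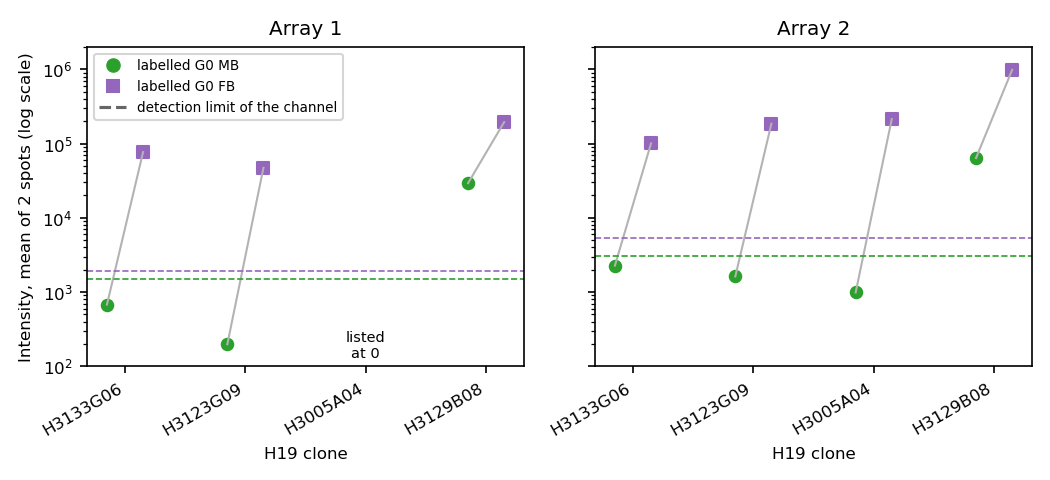
Intensity of the 4 H19 clones (mean of 2 spots, log scale) in the channels labelled G0 MB (green) and G0 FB (purple) on each array, with the detection limit of each channel as a dashed line. In 3 clones the G0 MB channel lies under its limit, and in H3129B08 both channels lie above; title order exchanges the colours.

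The 2 unnamed clones were also lower in G0 MB. H3144B07 read 392 for G0 MB and 19871 for G0 FB on array 1, and 1970 for G0 MB and 230486 for G0 FB on array 2. With G0 MB under the limit on both arrays, it was at least 31.9-fold lower in G0 MB as the mean of the 2 arrays (log2 −5.69 and −6.87, mean −6.28 ± 0.44, adjusted p = 0.0028 by limma). Its exact ratio, SE and p thus rest on G0 MB values that are not above background. H3144B06, its neighbour in the clone numbering, read 6058.5 for G0 MB and 118000.5 for G0 FB on array 1. On array 2 it read 1042.5 for G0 MB and 56838 for G0 FB. Its log2 ratios were −4.29 and −5.77, with a mean of −5.03 ± 0.48 (adjusted p = 0.0072 by limma). Since G0 MB was under its limit of 3021 on array 2, that ratio, the mean and the p rest in part on a value not above background. No gene is paired with either clone in the files or reference used here.

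RNA labelled G0 MB was also read on other arrays, and the labels do not say whether it came from the same cultures. Over the 5 arrays of G0 MB with MB or MT, H19 clone H3123G09 lay in the channel labelled G0 MB between percentile 83 and 98.8 of all clones with signal, above the limit on each. H3133G06 lay there between percentile 88 and 99.3. In the channel labelled G0 MB on the arrays with G0 FB, H3123G09 stood at percentile 8.84 and 13.6 and H3133G06 at percentile 18.7 and 21.1. The channels labelled G0 FB put H3123G09 at percentile 90.5 and 97.2 and H3133G06 at percentile 93.6 and 95.3. The channels labelled MB and MT on the other 5 arrays held both clones at percentile 83.9 or above. These H19 clones were thus bright in every channel of the 5 arrays, all labelled as C2C12 RNA, and in the channel labelled G0 FB, and dim only in the channel labelled G0 MB beside it.

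**Figure D3:**
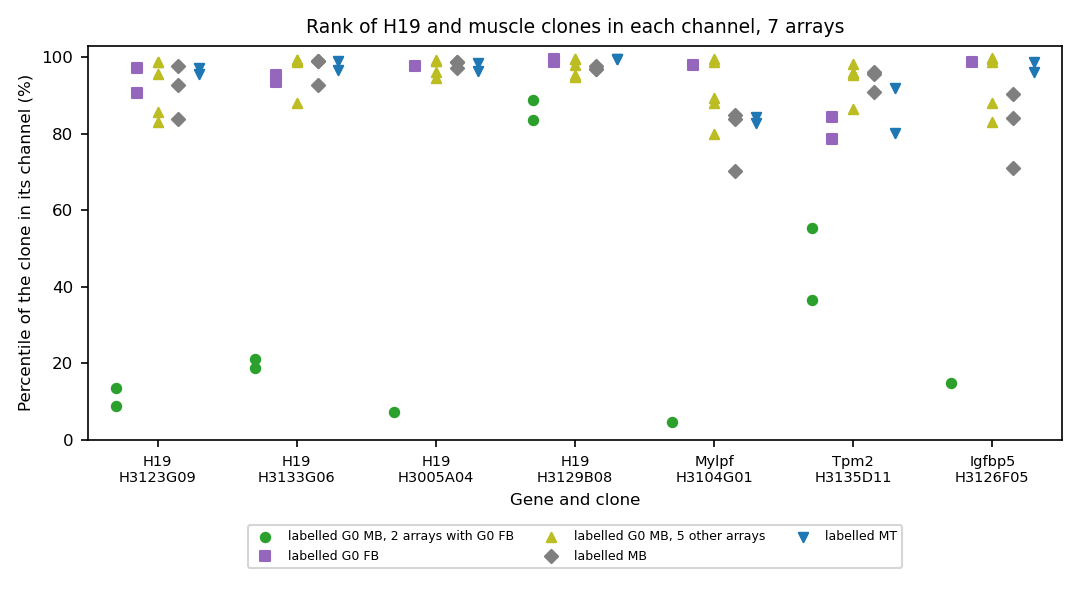
Percentile of each clone among all clones with signal in its channel (y axis, %) for H19, Mylpf, Tpm2 and Igfbp5, 1 point per channel, by the RNA named in the labels; clones listed at 0 have no point. The points labelled G0 MB on the arrays with G0 FB lie below all others of the same clone, and in title order they exchange places with those labelled G0 FB.

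Some imprinted genes were tested on both arrays and not called, with Gnas at −0.32 and −0.30, Igf2r at 1.46 and 0.12, and Sgce at −0.06 and 0.73. Of 5 genes tested in the insulin-like growth factor list, 3 were above 0 and 1 below on both arrays. None of the 5 passed 1.6-fold the same way on both, and their median was 0.79. Igf2, Igfbp5 and Cdkn1c were measured on array 2 alone, each with G0 MB under its limit of 3021, so that only a bound holds. Igf2, read by clone H3126A04, stood at 517 in G0 MB and 22932.5 in G0 FB, at least 7.59-fold lower in G0 MB. Igfbp5, which binds insulin-like growth factors and is abundant in muscle cells, stood at 1786 in G0 MB and 292434 in G0 FB, at least 96.8-fold lower in G0 MB. Cdkn1c, an imprinted inhibitor of cyclin-dependent kinases that was named after its values were seen, stood at 160 in G0 MB and 37853 in G0 FB, at least 12.5-fold lower in G0 MB. Each was listed at 0 in both channels of array 1, so none has a replicate or a test. On that array 12299 of 30494 clone spots were at 0 in both channels, 1066 of them above the limit on array 2. Ratios past log2 4 on array 2 alone were lopsided: 114 clones were lower in G0 MB and 15 higher, while on array 1 alone 0 were lower and 6 higher. In both arrays the dim channel of most of these clones was Cy5. Among clones with ratios on both arrays no such lean was seen, with 21 dim in Cy5 and 30 dim in Cy3 past log2 4 on array 2, and 5 and 7 on array 1. In the channel labelled G0 MB on the other 5 arrays, the Igfbp5 clone lay at percentile 83 to 99.7, against percentile 15 on array 2, and the Igf2 clone at percentile 62.2 to 88.4, against 3.94. Cdkn1c went otherwise: its clone was under the limit in the channels labelled G0 MB of all 5 other arrays, at percentile 3.73 to 26.5, as it was in that of array 2, at 1.77.

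Beyond the calls, the genes with the largest ratios on both arrays and both channels above the limit included collagens, membrane proteoglycans and actin-binding proteins, none of which passed the adjusted threshold. Higher in G0 MB by the labelled dyes was Ly6a (Sca-1), a surface protein of mesenchymal and stem cells, at 72490 in G0 MB and 10944 in G0 FB on array 1 and 110999 in G0 MB and 14635 in G0 FB on array 2. Its log2 ratios were 2.73 and 2.92 (mean 2.83 ± 0.40, adjusted p = 0.0962 by limma). Col1a1, the chain of type I collagen, was at log2 3.66 and 1.78, and the type IV collagen chain Col4a1 of basement membranes at 2.68 and 2.20, with 2.16 and 2.45 in its second clone. Mtap, an enzyme of methionine salvage, was at 2.31 and 2.62. Ier3, an early response gene, was at 1.97 and 2.67, and Hmga1, a chromatin protein, at 2.40 and 1.98. The growth factor Ptn was at 2.02 and 1.85 and the haem-binding membrane protein Pgrmc1 at 2.23 and 2.08. Gpr137b, a lysosomal membrane protein, was at 1.98 and 1.59, and at 1.59 and 1.68 in another clone. Scmh1, a Polycomb protein, was at 1.63 and 1.77, but its other clones averaged 0.73 and 0.50. All of these turn to lower in title order.

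On the lower side by the labelled dyes stood Col3a1, the type III collagen chain, with 27642.5 in G0 MB and 265749 in G0 FB on array 1 and 30616 in G0 MB and 202165 in G0 FB on array 2 (log2 −3.26 and −2.72, mean −2.99 ± 0.43, adjusted p = 0.0849 by limma). A second clone averaged −2.79 and the brightest −1.06, so the size depends on the clone. Sdc2, a cell surface proteoglycan, read 7781.5 in G0 MB and 50357 in G0 FB on array 1 and 17959 in G0 MB and 135072 in G0 FB on array 2 (log2 −2.73 and −2.91, adjusted p = 0.0985 by limma). Tpm2, 1 of the tropomyosins of muscle, read 5121.5 in G0 MB and 30869 in G0 FB on array 1. On array 2 it read 4998.5 in G0 MB and 31960.5 in G0 FB. Its log2 ratios were −2.60 and −2.68 (adjusted p = 0.0839 by limma) in this clone and −1.43 and −1.73 in the brightest. In each of these clones G0 MB was below G0 FB on both arrays. Crip2 and Crip1, small LIM domain proteins, were at −3.29 and −1.88 and at −2.05 and −2.09. Myo10, an unconventional myosin of filopodia, was at −2.47 and −2.02, the transcription factor Foxo1 at −2.87 and −1.43, and the matrix protein Matn2 at −2.40 and −1.89. With both channels required above the limit, Col3a1 (2 clones, adjusted p = 0.00999 and 0.0146), Sdc2 (0.0122) and Tpm2 (0.00999) were called by limma as well, again lower in G0 MB, while the H19 clones with a dim channel dropped out of the test. In title order all of these are higher in G0 MB.

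**Figure D4:**
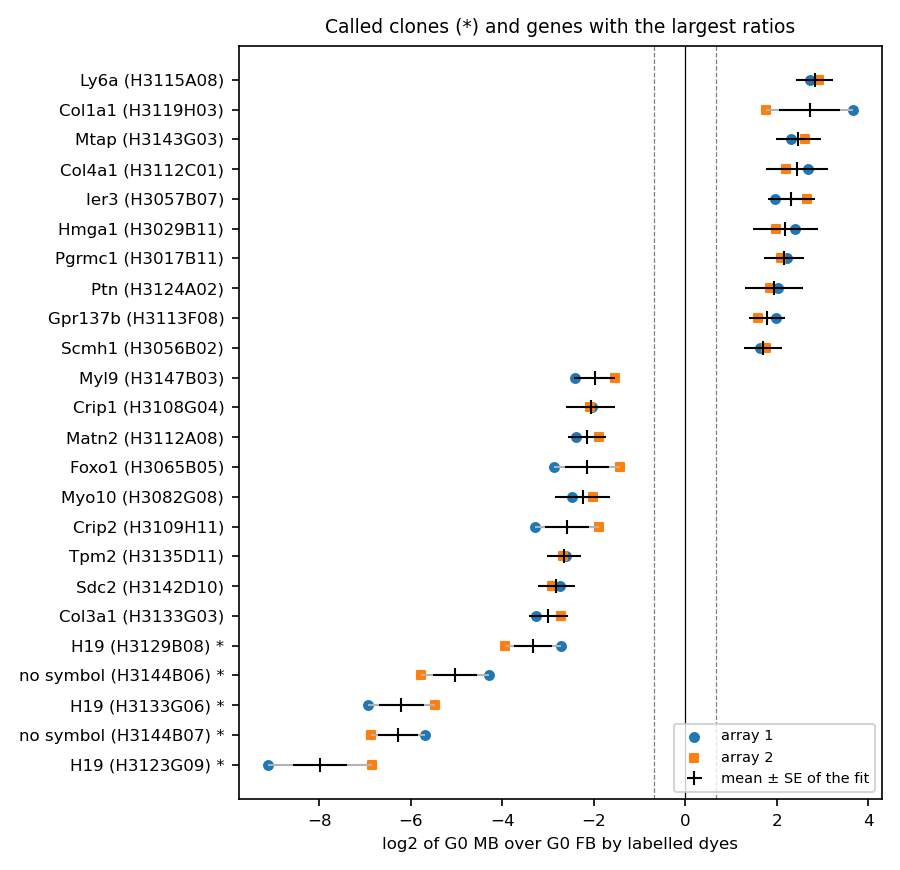
Log2 ratio of G0 MB over G0 FB by labelled dyes (x axis) on array 1 (circles) and array 2 (squares), with the mean ± SE of the fit, for the called clones (*) and the genes with the largest ratios on both arrays; dashed lines mark 1.6-fold. No circle or square crosses 0, and title order mirrors the x axis.

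Among 3491 genes tested, each by its brightest clone, 143 were higher past 1.6-fold on both arrays (4.1%) and 123 lower (3.52%), with a median log2 ratio of −0.05. Of 40 lists of pathways and cell types holding 1303 genes, 586 genes were tested and 1, H19, was called by limma. Lists are therefore described by how many members passed 1.6-fold the same way on both arrays, beside those shares, and by their medians. The following signs are by the labelled dyes and all turn in title order.

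Genes of the actin cytoskeleton and smooth muscle were lower in G0 MB past 1.6-fold on both arrays in 7 of 29 cases and higher in 0, and 19 of 29 were below 0 on both arrays, where 32.1% of all genes were. The median log2 ratio was −0.45. The regulatory light chain Myl9 was at −2.42 and −1.54, the non-muscle light chain Myl6 at −1.31 and −1.28, and the heavy chain Myh9 at −1.18 and −1.75. The thymosins Tmsb10 (−1.81 and −1.72) and Tmsb4x (−2.15 and −1.12), which hold actin monomers, had the same sign. Of the integrins and focal adhesion proteins 3 of 15 were lower and 0 higher, among them vinculin, Vcl (−1.46 and −2.17), and zyxin, Zyx (−1.44 and −1.41), which link integrins to actin. Of 4 sarcomere genes tested, Tpm2 and Tpm1 (−1.23 and −1.28) were lower on both arrays. Ttn (−0.32 and 0.26) and Tpm3 (0.02 and −0.22) changed sign between the arrays. The smooth muscle markers Cnn1 (−0.80 and −0.54) and Tagln (−0.37 and 0.22) stayed inside 1.6-fold on at least 1 array.

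These contractile, adhesion and actin genes include known targets of SRF, so their promoters were searched for the CArG box, on both strands of the 300 bases from 250 before to 50 after the start (RefSeq, GRCm38.p6). The motif was in 1.63% of all 32851 promoters. Counted by gene, as for the members below, 488 of 27025 genes held it in at least 1 promoter (1.81%). Of 12 members lower past 1.6-fold on both arrays, 10 had a promoter entry and 3 of these held it. Of all 48 tested members, 42 had an entry and 8 held it. The 3 promoters are printed because they belong to members that stood lower together, with the CArG box in capitals: Myl9 (chr2:156775214-156775513, plus strand), Vcl (chr14:20929148-20929447, plus strand) and 1 of the 2 starts of Myl6 (chr10:128492960-128493259, minus strand).
Myl9: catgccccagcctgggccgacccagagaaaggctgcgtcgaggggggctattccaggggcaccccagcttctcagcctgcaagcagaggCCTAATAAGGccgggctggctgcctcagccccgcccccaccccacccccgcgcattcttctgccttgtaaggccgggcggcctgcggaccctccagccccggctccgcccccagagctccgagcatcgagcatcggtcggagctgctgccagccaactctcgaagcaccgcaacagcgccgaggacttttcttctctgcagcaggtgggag
Vcl: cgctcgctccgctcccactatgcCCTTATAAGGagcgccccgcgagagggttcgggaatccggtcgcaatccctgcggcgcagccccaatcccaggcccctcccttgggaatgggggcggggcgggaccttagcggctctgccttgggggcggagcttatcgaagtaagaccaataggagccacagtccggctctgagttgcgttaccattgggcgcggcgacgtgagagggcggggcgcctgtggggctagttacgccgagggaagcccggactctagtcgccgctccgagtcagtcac
Myl6: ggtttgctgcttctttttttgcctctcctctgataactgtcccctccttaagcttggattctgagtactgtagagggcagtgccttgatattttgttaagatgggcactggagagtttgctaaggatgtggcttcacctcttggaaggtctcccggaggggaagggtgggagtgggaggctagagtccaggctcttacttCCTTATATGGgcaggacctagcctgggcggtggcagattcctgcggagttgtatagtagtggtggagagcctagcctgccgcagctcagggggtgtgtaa
A match is a description of the letters and not evidence of binding in these cells.

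Of 15 fibrillar collagens and their processing proteins, 4 were lower past 1.6-fold on both arrays, namely Col3a1, Col5a1 (−1.88 and −1.30), Sparc (mean −1.12 ± 0.45, SE), which binds collagen, and the collagen chaperone Serpinh1 (−0.68 and −1.50), while Col1a1 was higher. The basement membrane genes had 3 of 8 higher, Col4a1, Col4a2 (1.97 and 1.61) and Nid1 (0.97 and 0.71), and 1 lower, Lamb1 (−1.16 and −0.95). Of 17 matrix glycoproteins and proteoglycans, 5 were lower and 2 higher. Lower were Sdc2, Matn2, the glypican Gpc1 (−1.09 and −1.54), the elastic fibre protein Efemp2 (−0.68 and −1.19) and osteopontin, Spp1 (−0.82 and −1.43), and higher were tenascin, Tnc (1.07 and 1.30), and Emilin1 (0.81 and 0.89). Fibronectin, Fn1, was at −0.16 and −0.77 and the proteoglycan Dcn at −2.39 and −0.59. Among 9 matrix proteases and inhibitors, the protease inhibitor Timp3 (0.94 and 1.68, with 2.36 and 2.49 in a second clone) and the protease Adamts1 (1.13 and 0.97) were higher, and the serpin Serpinf1 (−1.57 and −1.12) was lower. Of 19 fibroblast markers, 11 had a clone on the array and 6 were tested: Col1a1 was higher, Col3a1 and Col5a1 were lower past 1.6-fold on both arrays, and the median was −0.79.

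Genes of oxidative phosphorylation leaned lower in G0 MB, though the arrays differed in size. In complexes II to IV, 12 of 19 genes were below 0 on both arrays and 1 above, with medians of −1.003 on array 1 and −0.15 on array 2. In complex I, 10 of 17 were below 0 on both arrays and 0 above, with medians of −1.23 and −0.13. Past 1.6-fold on both arrays, 2 of the 19 and 1 of the 17 were lower, and 0 were higher in either list. In ATP synthase and its carriers 12 of 15 were below 0 on both arrays, with medians of −0.40 and −0.42, and 3 passed 1.6-fold on both, among them the subunits Atp5b (−0.92 and −1.04) and Atp5e (−1.72 and −1.29). Limma called 0 of these genes. The cytosolic ribosome was nearer to the other genes, with 0 of 54 proteins past 1.6-fold on both arrays and a median of −0.26. Among 12 genes of amino acid supply and ATF4, the stress transcription factor, 9 were below 0 on both arrays, with Atf4 itself at −0.91 and −1.10, Asns, which makes asparagine, at a mean of −0.88 ± 0.74 (SE), and Phgdh, the first enzyme of serine synthesis, at −0.77 and −0.86. Lysosomal genes leaned the other way, with 16 of 29 above 0 on both arrays and 3 below, where 28.1% of all genes were above. Past 1.6-fold on both arrays, 3 were higher and 2 lower. A lean above 0 was not particular to this list: of 13 TGF-beta and BMP genes, 7 were above 0 on both arrays and 4 below. Of 11 inhibitors of differentiation, 7 were above and 2 below. The lysosomal mannosidase Man2b1 was at 2.68 and 2.45 and the cholesterol transporter Npc1 at 1.23 and 1.77, but the activator protein Gm2a was at −3.63 and −3.04 (adjusted p = 0.102 by limma).

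**Figure D5:**
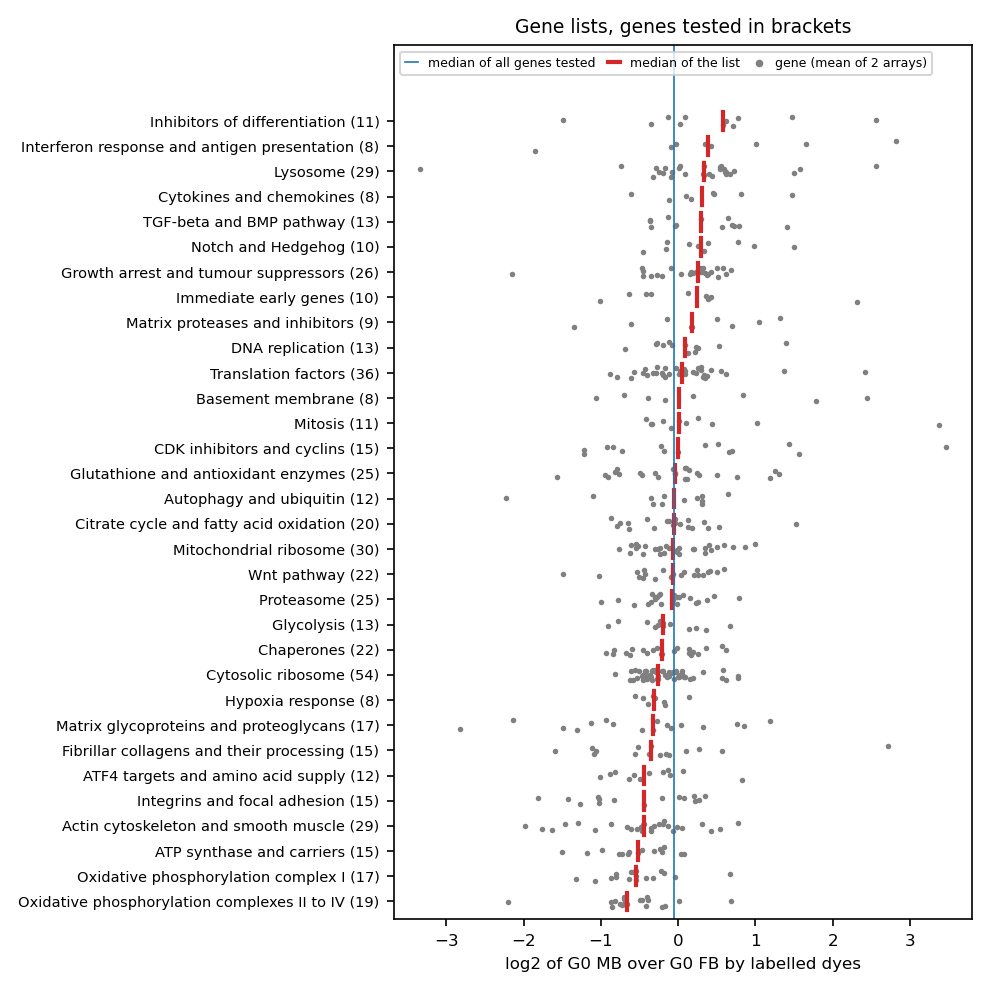
Mean log2 ratio of G0 MB over G0 FB by labelled dyes (x axis) of each gene in the lists with 8 or more genes tested, with the median of each list in red and that of all genes tested, −0.05, in blue. Oxidative phosphorylation and actin lists lie at the bottom with medians between −0.66 and −0.45; title order mirrors the x axis.

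Signalling genes showed few large ratios. Of 22 Wnt pathway genes, 0 were higher and 2 lower past 1.6-fold on both arrays, the Dickkopf receptor Kremen1 (−1.28 and −0.77) and the G protein regulator Rgs2 (−1.68 and −1.29), and the median was −0.07. Beta-catenin, Ctnnb1, was at 0.72 and 0.46, and Dkk3, a secreted protein of the Dickkopf family, at 0.17 and −0.33. In the Notch and Hedgehog list 3 of 10 were higher, the Notch effector Rbpj (0.71 and 0.82), the Hedgehog signal transducer Smo (0.91 and 1.06) and Npc1. In the TGF-beta and BMP list 2 of 13 were higher, the repressor Tgif1 (0.78 and 2.04) and the BMP-binding protein Twsg1 (0.87 and 0.71). The receptor Fgfr1 (−0.23 and −0.58) and the endocytic adaptor Dab2 (−0.09 and 0.17) stayed within 1.6-fold. Lrp1, an endocytic receptor, was at 0.64 and −0.50.

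Growth arrest genes passed 1.6-fold on both arrays about as rarely as all genes, of which 3.52% were lower and 4.1% higher. Of 26 genes that the study lists as tumour suppressors induced in G0 MB, 1, Foxo1, was lower past 1.6-fold on both arrays and 0 were higher. Above 0 on both arrays were 13 of the 26, and 6 were below, where 28.1% and 32.1% of all genes were. The growth arrest gene Gas1 was at −0.95 and 0.05, and the antiproliferative Btg1 at 0.54 and 0.46. Of 11 genes that it lists as inhibitors of differentiation, 4 were higher and 0 lower: the transcription factor Stat3 (1.56 and 3.57), the cytokine receptor subunit Il6st (1.09 and 1.86), Rbpj, and Pias1, a SUMO ligase (0.68 and 0.75). Both lists were chosen by the study on samples of this series and are not independent evidence of a direction. Among 15 cyclins and CDK genes, Cdk8, a kinase of the Mediator complex (−1.35 and −1.10), Myc, which drives growth (−1.62 and −0.83), and the cyclins Ccnd3 (−1.03 and −0.81) and Ccnb1 (−0.97 and −0.73) were lower, and Ccna2, the cyclin of S phase, was higher (1.67 and 1.46). None of 13 DNA replication genes and 2 of 11 mitosis genes, the condensin subunit Smc2 (4.26 and 2.48) and the kinesin Kif23 (0.68 and 1.35), passed 1.6-fold on both arrays.

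Markers of other cell types were sparse. Of those of adipocytes, cartilage and bone, macrophages, endothelium, epithelium and nerve, 17 had a clone and 8 were tested, and of the 8 only Spp1 passed 1.6-fold on both arrays. Col2a1, the collagen of cartilage, was at 3.38 on array 1 and 0.39 on array 2. The macrophage gene Lyz2 was at −0.60 and 0.66 and the endothelial gene Pecam1 at 0.51 and 0.06.

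The ratio over G0 FB was set against that over MT, where the same fit tested the difference of the ratios for 4952 clones and called 12 (0.242%), 6 in each direction. Both comparisons hold RNA labelled G0 MB and both turn in title order. Where that RNA is alike in both, it cancels, and the difference is an indirect ratio of MT over G0 FB rather than a measure of G0 MB. On its own, G0 MB over MT had 20 of 5114 clones called (0.391%). H19 clones H3123G09 and H3133G06 were at 1.20 and 1.17 and at 1.28 and 0.43 in G0 MB over MT, so that the fitted ratio over G0 FB was lower by 9.17 and 7.06 on the log2 scale (both adjusted p = 0.00875 by limma). These fits rest on G0 MB values under the limit on the arrays with G0 FB, and with the limit in their place the differences are −6.65 and −6.23 or further below 0. Tpm2 was at 2.23 and 1.78 against MT and differed by −4.64 (adjusted p = 0.012 by limma). Ly6a was at −3.10 and −3.28 against MT and differed by 6.02 (adjusted p = 0.0104 by limma). Plin2, which coats lipid droplets, was at 1.31 and 1.19 against G0 FB and at −2.55 and −3.89 against MT, a difference of 4.47 (adjusted p = 0.0255 by limma). Gpr137b, in both of its clones, differed by 5.06 and 4.36, and Smarcd2, a subunit of the SWI/SNF chromatin remodeller, by 4.69. The number of calls depends on single arrays, from 0 without replicate 1 or replicate 2 of G0 MB over MB to 75 without replicate 2 of G0 MB over MT.

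Against growing MB, where labelled dyes and titles give the same direction and 116 of 6771 clones were called (1.71%), H19 differed between clones: H3133G06 was at −0.18, 0.42 and −0.63 over 3 arrays, H3123G09 at −0.95, −1.26 and 0.17, and H3005A04 at −1.41, 0.03 and −0.76. Igfbp5 was at 4.73, 4.69 and 3.82 in G0 MB over MB, higher in G0 MB on every array, while it was at least 96.8-fold lower than in G0 FB on array 2 by the labelled dyes. Mylpf was at 0.57, −0.52 and 1.39 in G0 MB over MB. Ly6a was at 2.50 and 1.78 on the 2 arrays that measured it.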

How the data were processed

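RNA of C2C12 cells and of fibroblasts, both arrested for 48 h in suspension, was hybridized together on 2 two-colour cDNA arrays with reversed dyes. The Cy3 and Cy5 intensity of each spot was deposited after the authors had quantified it with ArrayVision, subtracted the background and normalized by LOWESS, with filtered spots at 0 in both channels. Beside them the authors deposited log2 ratios of these intensities. Tool versions are not given in the sources used here. Log2 of Cy5 over Cy3 was recomputed, spots with a detection flag of 1 were kept, duplicate spots were averaged, and the sign was set by the labelled dyes. The design foresaw raw intensities, so background correction and LOWESS were not repeated, except in 1 alternative.

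The 7 arrays that hold G0 MB were fitted together with limma 3.58.1 (R 4.3.3), each comparison with its own coefficient, and clones with a value on both arrays and at least 2 residual degrees of freedom were tested. Adjustment followed Benjamini and Hochberg over all clones tested. Calls needed an adjusted p under 0.04 and a mean past 1.6-fold, as the study's methods set for SAM. The 2 arrays of MT over MB were left out, since by their labelled dyes they run opposite to each other. Where the dim channel lay under the limit on both arrays, the limit took its place and the fold is a lower bound. It is the mean of the 2 arrays on the log2 scale, so the bound of a single array can be smaller. The number of arrays limits the precision. Simulated noise took each clone's spread from the fit of the 7 arrays, which is shared over its comparisons. In such noise over 6140 clones, only a small part of the clones was given a change. Of that part, the fit recovered 2% at a log2 change of 1, 32% at 2, 90% at 3 and 98% at 4. Of 117 calls, 6 were false.

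Symbols came from the array annotation, updated through RefSeq genes (GRCm38.p6): of 15247 clones, 6974 symbols were current, 3693 were updated, 473 were unmatched and 4107 clones had none. A gene is given by its brightest clone. The members, the lists and the tests were chosen with earlier results of these data known. Named were all calls, up to 10 genes a direction with the largest mean among those past 1.6-fold on both arrays with both channels above the limit, 3 members of each list with the smallest p, and 20 genes fixed by name, of which 19 were on the array. Alternatives covered direction, arrays, filter, normalization, pairing, dye and SAM. Python 3.11.15, pandas 2.3.3 and numpy 2.4.6 were used for tables.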

Additional observations from a re-analysis of the deposited data

Results flagged for a closer look

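The ratio of G0 MB over G0 FB differed from that of G0 MB over MT, by the test of the difference in limma, for 2 H19 clones (−9.17 and −7.06 on the log2 scale), 2 clones without a symbol (−6.10 and −7.35), Tpm2 (−4.64), Ly6a (6.02), Plin2 (4.47) and both Gpr137b clones (5.06 and 4.36). The signs are by the labelled dyes, and title order turns all of them. The G0 MB values of both H19 clones and of 1 unnamed clone (−7.35) were under their limits on the 2 arrays with G0 FB, so that only bounds hold for them, of −6.65, −6.23 and −6.06 or further below 0. The other unnamed clone (−6.10) had its G0 MB value under the limit on array 2 alone, so the size of its difference rests in part on that value. Both comparisons rest on RNA labelled G0 MB, of the same line by the labels. Where that RNA is alike in both, it cancels, and the differences are indirect ratios of MT over G0 FB. Leaving out replicate 1 or replicate 2 of G0 MB over MB left 0 of these differences called.

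On array 2 alone, with both channels at 0 on array 1, signal was found for an H19 clone (−7.75), Igf2 (−5.45), Igfbp5 (−7.36) and Mylpf (−8.52), as log2 of G0 MB over G0 FB by the labelled dyes. In each the G0 MB channel lay under its limit, so the exact ratios are not measured and only bounds hold. They have no replicate and were not tested, and they turn in title order. In each the dim channel was Cy5, as it was in 114 of the clones past log2 4 on this array alone, against 15 with a dim Cy3; among clones measured on both arrays it was 21 against 30 on this array.

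With 2 arrays a group, no array can be called far from the others by its value.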

How the results depend on the processing

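In title order every sign turned: the 5 calls became 5 higher in G0 MB over 7 arrays and 6 higher over all 9, and under both the called clones read 7.98 for H19 (H3123G09), 6.21 for H19 (H3133G06), 3.34 for H19 (H3129B08), 6.28 for no symbol (H3144B07) and 5.03 for no symbol (H3144B06). The 498 clones past 1.6-fold on both arrays stayed 498 in title order, at 202 higher and 296 lower, and became 272 with both channels above the limit, 133 higher and 139 lower, and 228 at 2-fold, 130 higher and 98 lower. Calls numbered 0 with only the 2 arrays, 2 with no filter on dim spots and 24 with arrays scaled to a common spread (5 higher, 19 lower). They ranged from 0 to 21 with 1 array left out. SAM over single spots, which counts duplicate spots as replicates, called 841 clones of 5691, 559 higher and 282 lower, and so turned the balance of directions. Median centring, a repeated loess, a dye term and the value table, turned to the labelled dyes, gave 4, 5, 4 and 5 calls, and both channels above the limit 7, all lower in G0 MB. Of 149 named clones, 3 turned sign with the repeated loess, 5 without array 1 and 5 without array 2. The difference from G0 MB over MT was called for 12 clones, 7 with no filter, 35 with arrays scaled, and 0 to 75 with 1 array left out. The replicate numbers did not pair the arrays: same-numbered arrays of G0 MB over G0 FB and G0 MB over MT had r = −0.43 of their deviations, and a replicate block gave 4 calls of 4400 and 3 for the difference. With the numbers of G0 MB over MT crossed, a pairing chosen after seeing the data like each left-out array of the other comparisons and each alternative for the difference, the block gave 4 and 13. Of the medians of lists, 9 moved with the mean of all clones in place of the brightest. The causes were not tested. Clones with a channel near its detection limit carry the least precise ratios.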

Other observations

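Several genes outside the groups described had large ratios on both arrays by the labelled dyes, none of them called by limma, and title order turns them. Glul, which makes glutamine, was at −2.77 and −1.68, and Ly6e, a relative of Ly6a, at −2.08 and −1.63. The initiation factor subunit Eif2s3x was at 1.68 and 3.16, and Mgp, an inhibitor of calcification, at 1.10 and 1.34. The early response factor Egr1 was at a mean of −1.02 ± 0.46 (SE). The glutathione transferases went both ways, with Gstm2 at 1.08 and 1.29, Gsto1 at 0.76 and 1.75 and Gsta4 at −2.45 and −0.70.

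Of 735 genes with more than 1 clone tested, the brightest and second clones had the same sign in 458. Where the brightest passed 1.6-fold on both arrays, in 41 genes, the second clone did so the same way in 21 and the other way in 1.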
